A study of Mus musculus with 4 samples.

Results

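Ppp1r1c, Tafa2, Prrxl1 and Lmo3 are 4 of the 25239 gene symbols in the deposited tables. They were chosen by their measured levels, as genes whose value in the double-mutant library stood far from the values in the other 3 libraries. The levels below are therefore a description, and nothing is tested on them. The study took the cochleovestibular ganglion, the cluster of young auditory and balance neurons beside the inner ear, from mouse embryos at embryonic day 11.5. One strand-specific RNA library was deposited for each of 4 genotype labels, control, Isl1CKO, Pou4f1KO and DKO. The labels were read as a conditional knockout of Isl1, a knockout of Pou4f1 and a knockout of both. The strain, the alleles of the control, the Cre driver and the number of embryos in a library were not given in the sources used here. With 1 library per genotype there is no replicate, no p-value and no estimate of error, and every difference given is a difference between 2 libraries.

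ISL1 belongs to the LIM-homeodomain factors and POU4F1, also called BRN3A, to the POU-homeodomain factors. Both are made in newly born sensory neurons of the cranial and dorsal root ganglia, where they switch on sensory genes and repress genes of other neuron types. Ppp1r1c encodes an inhibitory subunit of protein phosphatase 1 (PP1), related to DARPP-32. Tafa2 (formerly Fam19a2) encodes a small secreted protein of the TAFA family, made mainly in the nervous system. Prrxl1 (also Drg11 or Drgx) encodes a paired-class homeodomain factor needed to build the somatosensory pathway from ganglion to spinal cord. Lmo3 encodes a LIM-only protein, which has LIM domains without a homeodomain and joins transcription complexes through partners such as LDB1.

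All 4 symbols stood on 1 row in each table, matched a protein-coding gene of GENCODE M21 on the same strand, and reached 1 TPM in at least 1 library. That was the condition for being among the 15049 compared genes. TPM is a transcript level scaled for gene length and library total, so levels of different genes can be set side by side. Ppp1r1c spans mm10 chr2:79707780-79818546 on the plus strand, with up to 5 exons in 5 annotated transcripts. Tafa2 spans chr10:123264076-123741204 on the plus strand, with up to 6 exons in 3 transcripts. Prrxl1 spans chr14:32599408-32649246 on the plus strand, with up to 8 exons in 5 transcripts. Lmo3 spans chr6:138362918-138581968 on the minus strand, with up to 5 exons in 8 transcripts. The genes therefore lie on 4 different chromosomes, and each value covers the whole gene, not 1 transcript.

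The start regions are shown because ISL1 and POU4F1 bind sites built around the homeodomain core TAAT, and because 3 of the genes were low in the same libraries. Each window runs 5′ to 3′ on the gene's strand from 250 bases before the RefSeq start to 50 bases after it (build GRCm38.p6, the mm10 assembly). The windows are chr2:79707530-79707829 (plus) for Ppp1r1c, chr10:123263826-123264125 (plus) for Tafa2, chr14:32599677-32599976 (plus) for Prrxl1 and chr6:138581919-138582218 (minus) for Lmo3. Capitals mark TAAT on either strand, which reads ATTA where it lies on the other strand.
Ppp1r1c: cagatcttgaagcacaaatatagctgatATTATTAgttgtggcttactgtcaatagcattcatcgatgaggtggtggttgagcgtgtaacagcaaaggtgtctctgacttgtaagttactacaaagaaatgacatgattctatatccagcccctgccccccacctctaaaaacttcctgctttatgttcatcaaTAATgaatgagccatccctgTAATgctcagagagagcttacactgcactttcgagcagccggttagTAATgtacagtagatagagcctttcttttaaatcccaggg
Tafa2: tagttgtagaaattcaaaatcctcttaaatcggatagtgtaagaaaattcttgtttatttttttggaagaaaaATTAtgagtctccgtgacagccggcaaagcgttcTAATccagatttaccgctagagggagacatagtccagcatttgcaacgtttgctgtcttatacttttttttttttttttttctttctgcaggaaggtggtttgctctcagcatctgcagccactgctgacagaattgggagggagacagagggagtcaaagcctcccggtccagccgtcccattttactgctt
Prrxl1: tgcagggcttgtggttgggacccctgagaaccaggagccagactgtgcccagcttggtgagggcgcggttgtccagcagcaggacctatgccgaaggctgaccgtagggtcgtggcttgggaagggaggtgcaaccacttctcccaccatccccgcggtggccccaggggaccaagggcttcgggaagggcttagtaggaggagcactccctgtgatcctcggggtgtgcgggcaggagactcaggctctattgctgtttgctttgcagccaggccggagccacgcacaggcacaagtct
Lmo3: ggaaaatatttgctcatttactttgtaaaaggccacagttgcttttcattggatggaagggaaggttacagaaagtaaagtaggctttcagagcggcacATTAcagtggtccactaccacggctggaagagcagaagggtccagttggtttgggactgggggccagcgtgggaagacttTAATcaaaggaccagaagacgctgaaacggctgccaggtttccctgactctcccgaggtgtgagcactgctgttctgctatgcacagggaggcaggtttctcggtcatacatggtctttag

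Ppp1r1c held 5 TAAT cores in its window. An overlapping pair began 222 and 219 bases before the start, 2 more began 56 and 36 bases before it, and 1 began 10 bases after it. Of 32851 RefSeq windows of the same length, 58.0% held the core at least once, 34.1% at least 2 times and 6.86% at least 5 times. Tafa2 held 2 cores, 177 and 143 bases before its start, and Lmo3 held 2, at 151 and 71 bases. Prrxl1 held none in these letters, but its RefSeq start (chr14:32599927) lies inside its row, which begins at chr14:32599408. The starts of the other genes are the first bases of their rows on the gene's strand. The GC content was 42.0% for Ppp1r1c, 41.7% for Tafa2, 50% for Lmo3 and 63.7% for Prrxl1, against a median of 52.7% over all windows, and a TAAT core is made only of A and T. The longer forms CTAATG (in 7.36% of windows, both strands searched) and ATNATTAAT (in 0.989%), which both contain TAAT, were in none of the 4 windows, nor were CAGCTG (16.3%) and TATAAA (13.6%). A match of letters is not a bound site, and a missing match says nothing of binding elsewhere.

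The targeted genes give the frame for the labels. Pou4f1 was at 146 TPM in control, 188 TPM in the library labelled Isl1CKO, 16.6 TPM in Pou4f1KO and 14.6 TPM in the library labelled DKO, so it was low where the label says it should be. Isl1 was at 450, 854, 340 and 579 TPM in the same order and was thus highest in the library whose label names its deletion. A whole-gene value need not cover the removed part of a conditional allele, and it does not check that label, so the words "labelled Isl1CKO" and "labelled DKO" are used below. The 28 pan-neuronal genes summed to 18006 to 20994 TPM, and none was past 2-fold in DKO against control. The 18 genes of otic ganglion neurons, which include Isl1 and Pou4f1, summed to 3152 to 3884 TPM, but 5 of them were at least 2-fold lower and 1 higher in DKO against control. The lower ones were Pou4f1 (−3.23), Gata3 (−1.92), Prph (−1.39), Ntrk2 (−1.37) and Neurog1 (−1.16), as log2 ratios of (TPM + 1), and the higher one was Neurod6 (1.42), all named after their values were seen. Over all compared genes 2.34% were lower and 1.01% higher by that margin. The ganglia also held other cells, as 10 erythroid markers summed to 6180 to 7490 TPM and 23 otic epithelium markers to 376 to 775 TPM. The ratio of coverage to FPKM, which corresponds to the gigabases of aligned sequence, was 13.6 to 16.6.

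Ppp1r1c was the most abundant of the 4 genes in control, at 100 TPM, a level above that of 86.6% of the compared genes. It stood at 70.9 TPM in the library labelled Isl1CKO, 22.7 TPM in Pou4f1KO and 8.42 TPM in the library labelled DKO. Every mutant library was below control, and the double mutant was the lowest. The mean read depth over the gene was 303 in control and 25.2 in the library labelled DKO, so the low value still rests on many reads. Against control the double-mutant level was 11.9-fold lower in TPM, or −3.43 as a log2 ratio of (TPM + 1), the scale used for all comparisons. That scale understates differences of genes near 1 TPM. Against the library labelled Isl1CKO the log2 ratio was −2.93, and against Pou4f1KO it was −1.33.

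Tafa2 showed the same order at lower levels. It was at 40.5 TPM in control, 29.8 TPM in the library labelled Isl1CKO, 15.5 TPM in Pou4f1KO and 5.61 TPM in the library labelled DKO. The double-mutant level was 7.22-fold below control, 5.31-fold below the library labelled Isl1CKO and 2.76-fold below Pou4f1KO. As log2 ratios these were −2.65, −2.22 and −1.32. The mean read depth was 227 in control and 30.2 in the library labelled DKO.

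Prrxl1 was a weakly expressed gene throughout, at 4.23 TPM in control, 4.17 TPM in the library labelled Isl1CKO, 1.61 TPM in Pou4f1KO and 0.292 TPM in the library labelled DKO. Unlike Ppp1r1c and Tafa2, it was nearly level between control and the library labelled Isl1CKO, with a log2 ratio of −0.02. The double-mutant level was 14.5-fold below control in TPM and 5.52-fold below Pou4f1KO. On the log2(TPM + 1) scale these were only −2.02 and −1.02, because the added 1 TPM exceeds the level itself. The mean read depth was 18.7 in control, 7.08 in Pou4f1KO and 1.29 in the library labelled DKO, so the last value rests on few reads and its fold is the least certain of the 4 genes.

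Lmo3 went the other way. It was at 0.838 TPM in control, 2.38 TPM in the library labelled Isl1CKO, 2.72 TPM in Pou4f1KO and 7.79 TPM in the library labelled DKO. Both single mutants were above control and near each other, and the double mutant was the highest. The double-mutant level was 9.29-fold above control, 3.27-fold above the library labelled Isl1CKO and 2.86-fold above Pou4f1KO, with log2 ratios of 2.26, 1.38 and 1.24. Lmo3 met the 1 TPM condition only through the mutant libraries. Its mean read depth was 3.95 in control and 36.5 in the library labelled DKO, so here the control value is the uncertain one. The row of Lmo3 overlaps those of 3 non-coding genes on the opposite strand, which stood at most at 0.349 TPM in any library. The sources used here do not say whether the authors counted by strand.

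**Figure D1:**
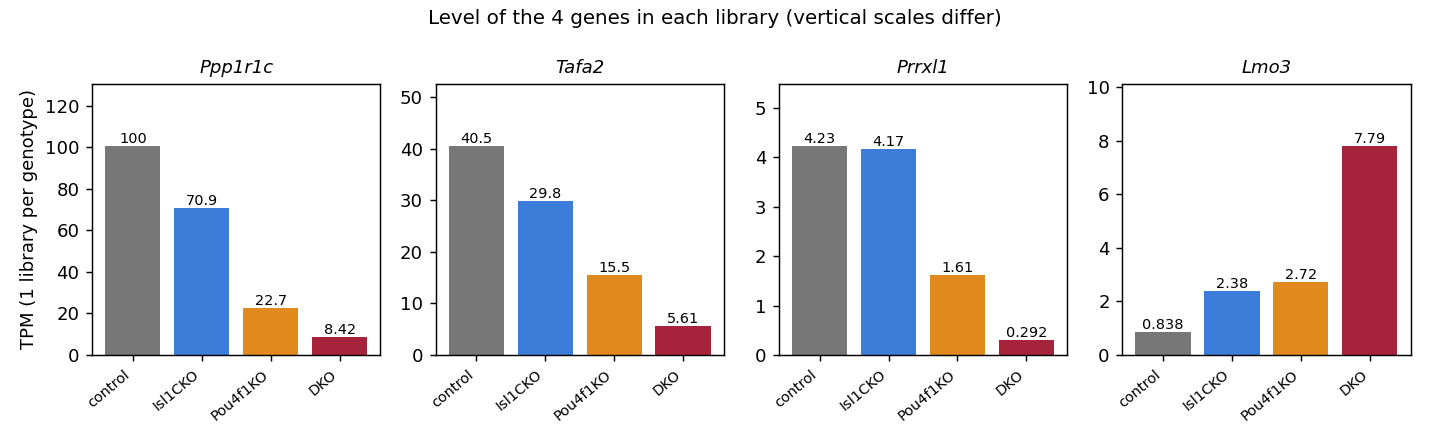
TPM of Ppp1r1c, Tafa2, Prrxl1 and Lmo3 (vertical axis, from 0, a separate scale for each gene) in the 4 libraries (horizontal axis), 1 bar per library with its value and no error bar, as there is 1 library per genotype. Ppp1r1c, Tafa2 and Prrxl1 were lowest in DKO (8.42, 5.61 and 0.292 TPM) and Lmo3 was highest there (7.79 TPM).

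Set against all compared genes, 3 of the 4 genes were at least 2-fold lower and 1 at least 2-fold higher in the library labelled DKO than in control. Of the compared genes, 2.34% were lower and 1.01% higher by that margin. Ppp1r1c had the second lowest log2 ratio of all 15049 genes, Tafa2 the 11th lowest and Prrxl1 the 51st lowest, while Lmo3 had the 11th highest. The same 3 genes were at least 2-fold lower, and Lmo3 higher, against the library labelled Isl1CKO, where 1.23% of genes were lower and 0.87% higher, and against Pou4f1KO, where the shares were 1.12% and 0.645%. In 17 genes (0.113%) the library labelled DKO was at least 2-fold below each of the other 3 libraries, and in 15 genes (0.0997%) it was at least 2-fold above each. The first set holds Ppp1r1c, Tafa2 and Prrxl1, and the second holds Lmo3. These contrasts chose the genes, so nothing is read from the shares. Prrxl1 lies at the edge of the lower set, last of its 17 by its smallest ratio, and the same ratio was −0.91 under a scaling of the libraries to the same pan-neuronal level. With (FPKM + 1) in place of (TPM + 1), Prrxl1 (−0.50) and Lmo3 (0.97) both missed 2-fold against Pou4f1KO. FPKM values were lower than TPM (for Lmo3 in DKO 2.82 against 7.79), so the added 1 weighed more.

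The single-mutant libraries differed from control less evenly. In Pou4f1KO, Ppp1r1c had a log2 ratio of −2.10 and Tafa2 of −1.33, both among the 1.73% of compared genes at least 2-fold lower. Prrxl1 stood at the 2-fold line with −1.0, just inside it by count, and passed it under the scaling to pan-neuronal genes (−1.21). Lmo3, at 1.02, was among the 0.977% that were at least 2-fold higher, but under pan-neuronal scaling it was at 0.83. In the library labelled Isl1CKO none of the 4 reached 2-fold, where 0.618% of genes were lower and 0.585% higher by that margin. Ppp1r1c was at −0.50, Tafa2 at −0.43, Prrxl1 at −0.02 and Lmo3 at 0.88, and Lmo3 reached 1.40 with a pseudocount of 0.1 TPM.

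**Figure D2:**
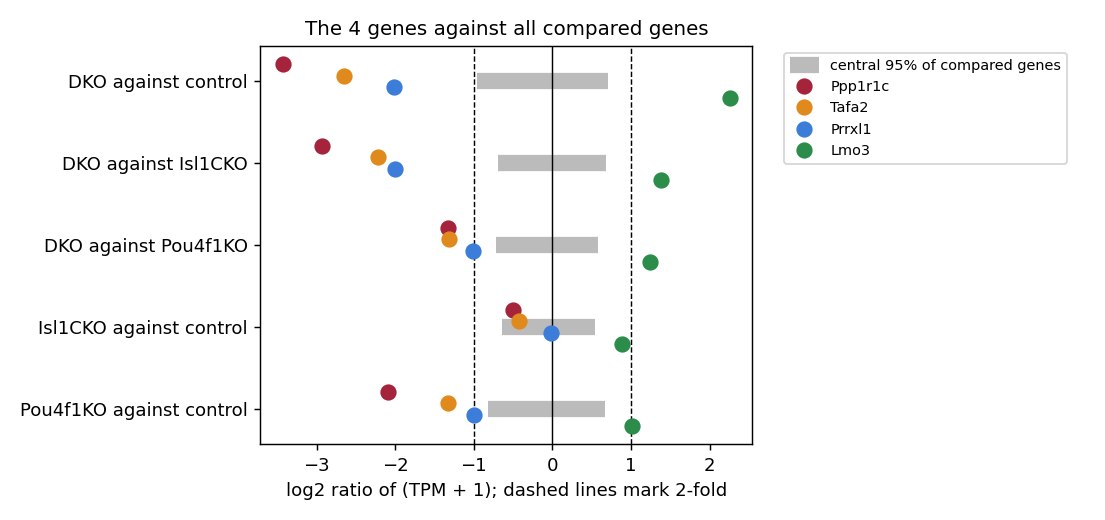
Log2 ratio of (TPM + 1) (horizontal axis) of the 4 genes, as coloured points, in 5 comparisons between libraries (vertical axis). The grey bars span the central 95% of the 15049 compared genes and the dashed lines mark 2-fold. In the 3 comparisons of DKO every point lies outside the bar, and in Isl1CKO against control Ppp1r1c, Tafa2 and Prrxl1 lie inside it.

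Each genotype label can be read in both backgrounds, using 2 pairs of libraries with none in common. For the Isl1 label, Ppp1r1c had a log2 ratio of −0.50 with Pou4f1 intact (Isl1CKO against control) and of −1.33 without it (DKO against Pou4f1KO). Tafa2 had −0.43 and −1.32, and Prrxl1 −0.02 and −1.02. Lmo3 had 0.88 and 1.24. For the Pou4f1 label the ratios were −2.10 and −2.93 in Ppp1r1c, −1.33 and −2.22 in Tafa2, −1.0 and −2.0 in Prrxl1, and 1.02 and 1.38 in Lmo3. Each gene was on the same side of 0 in both backgrounds for both labels, although the −0.02 of Prrxl1 is close to 0. The genes were chosen on TPM across all libraries, with attention to the double mutant against each of the others. Nothing is therefore read from the double-mutant ratios being the larger ones. No test of the difference between backgrounds is possible with these libraries.

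The double-mutant level was then set beside the level that would follow if both single-mutant ratios to control multiplied. For Ppp1r1c that product is 16.0 TPM and the library labelled DKO held 8.42 TPM, 52.5% of it. Tafa2 had a product of 11.4 TPM and a level of 5.61 TPM, 49.3% of it. Prrxl1 had a product of 1.59 TPM and a level of 0.292 TPM, 18.4% of it, at the depth of 1.29 given above. For Lmo3 the product was 7.73 TPM and the level 7.79 TPM, which is 101% of it. That product divides by the control level of 0.838 TPM, at a depth of 3.95, so the closeness of both values is not precise. The 3 lower genes were below their products. On the log2(TPM + 1) scale the departure was −0.84 for Ppp1r1c, −0.89 for Tafa2, −1.0 for Prrxl1 and 0.36 for Lmo3. The central 95% of compared genes had departures from −0.67 to 0.82. The departure is computed from the double-mutant level that chose the genes, so a large departure was favoured by the choice and nothing is read from the place of the 4 genes against that range. With libraries scaled to the pan-neuronal list the departures were −0.53, −0.58, −0.79 and 0.56 in the same order. The departure has no replicate behind it, and the value of Lmo3 on this scale comes from the added 1 TPM, since its plain log2 departure was 0.01.

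**Figure D3:**
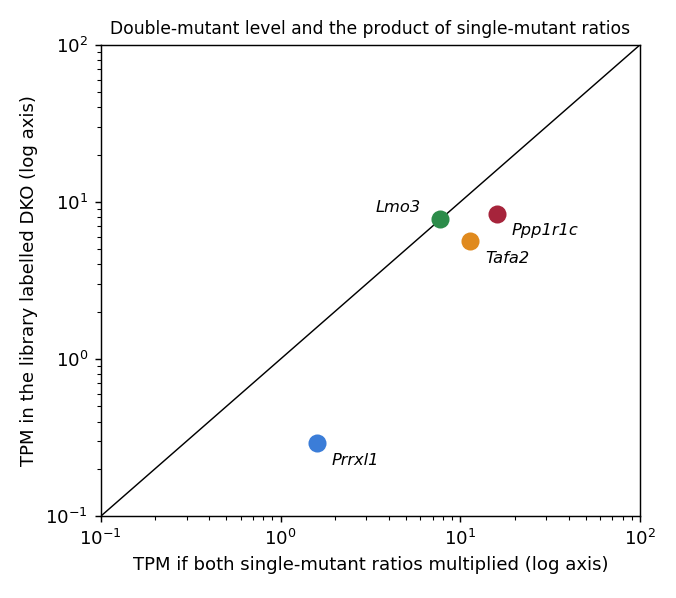
TPM in the library labelled DKO (vertical axis, logarithmic) against the TPM expected if both single-mutant ratios multiplied (horizontal axis, logarithmic), 1 point per gene, with the line of equality. Lmo3 lies on the line (7.73 and 7.79 TPM) and Ppp1r1c, Tafa2 and Prrxl1 lie below it.

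The relatives of Ppp1r1c did not share its pattern of levels. PP1 is a serine/threonine phosphatase whose catalytic subunits act through many inhibitory and targeting partners. The 3 catalytic genes Ppp1ca, Ppp1cb and Ppp1cc had log2 ratios of 0.00, −0.09 and −0.02 in the library labelled DKO against control. Of 11 inhibitor genes listed, 8 were compared, and Ppp1r1c alone was past 2-fold in any comparison run here. In DKO against control 2.34% of all compared genes were lower by that margin. In its own subfamily, Ppp1r1a (inhibitor-1) was at 34.1, 31.8, 45.6 and 43.3 TPM in control, the library labelled Isl1CKO, Pou4f1KO and the library labelled DKO. Ppp1r1b, which encodes DARPP-32, was below 1 TPM in every library (0.29 to 0.70 TPM). Ppp1r1c was therefore the most abundant of the subfamily in control and the second of it in the double mutant. Of 27 targeting subunits 23 were compared and none was past 2-fold in any of the 5 comparisons, with a median of −0.05 in DKO against control, beside −0.01 over all compared genes.

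The TAFA genes also differed among themselves. Tafa2 was the most abundant of the 5 in control (40.5 TPM), and the other two above 1 TPM were Tafa5 and Tafa4. Tafa5 was at 21.6, 31.4, 26.2 and 32.9 TPM in the order control, labelled Isl1CKO, Pou4f1KO and labelled DKO, a log2 ratio of 0.59 in DKO against control. Tafa4, a gene known from touch-sensing C fibres, was at 5.01, 3.26, 2.56 and 3.37 TPM (−0.46). Tafa1 and Tafa3 stayed under 1 TPM in all libraries. In the double mutant Tafa5 was thus the most abundant TAFA gene, above Tafa2. TAFA proteins can bind neurexins, presynaptic adhesion proteins that also bind neurexophilins. Of 6 compared genes of those families none was lower by 2-fold in DKO against control and 2 were higher, beside 2.34% lower and 1.01% higher over all compared genes. Nxph4 was at 2.13, 12.4, 10.7 and 16.4 TPM (2.48 against control), and Nrxn3 at 3.47, 3.52, 7.79 and 9.25 TPM (1.20).

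Prrxl1 was the 1 paired-class homeobox gene of 15 compared that was at least 2-fold lower in the library labelled DKO than in control. Over all compared genes 2.34% were lower by that margin, and Prrxl1 was chosen on its double-mutant level. The median of the 15 was 0.00 in that comparison. Shox2, named after its values were seen as the most abundant member shown here, stood at 205 TPM in control against 165 TPM in the library labelled DKO. Prrx2, a mesenchymal gene, was at 12.8, 5.71, 6.01 and 17.7 TPM and so was higher in DKO than in either single mutant (log2 ratios 1.48 and 1.42). Otp and Rax were at 5.52 and 1.10 TPM in Pou4f1KO and at most at 0.31 TPM elsewhere.

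Among 25 compared genes of somatosensory neurons, a list that contains Prrxl1, 12 were at least 2-fold lower and 1 was higher in DKO against control, with a median of −0.96. Over all compared genes 2.34% were lower and 1.01% higher, with a median of −0.01. The list was drawn up with earlier results of these data known and holds the deleted gene itself, so its count is no independent evidence. Scn9a encodes a voltage-gated sodium channel of pain-sensing neurons. It was at 66.8, 47.3, 41.0 and 14.6 TPM, and like Prrxl1 it was lower in DKO than in both single mutants. Pou4f2, the BRN3B factor, was at 2.99, 3.93, 0.78 and 0.06 TPM, with a log2 ratio of −0.75 in DKO against Pou4f1KO. Pou4f3 was at 15.7, 16.7, 1.29 and 1.31 TPM, so it was low in both libraries whose labels name Pou4f1, which stood level with each other (0.01). Pvalb, the calcium buffer parvalbumin, was at 13.7, 12.9, 0.54 and 2.30 TPM, higher in DKO than in Pou4f1KO (1.10). Prrxl1 is also needed by relay neurons of the dorsal horn. Of 10 compared genes on a mixed list of dorsal neuron factors, 3 were lower in DKO against control, where 2.34% of all compared genes were. The 3 are Prrxl1 itself, the deleted Pou4f1 and Pax2 (−1.49), which is also on the otic epithelium list. Lbx1, of the same list, was past 2-fold in the DKO comparisons only against Pou4f1KO (−1.31), where it was at 2.03 TPM.

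The LMO family has 4 genes, and Lmo3 was the least abundant of them in control and in every library. Lmo4 was at 235, 211, 274 and 262 TPM in control, labelled Isl1CKO, Pou4f1KO and labelled DKO. Lmo2, known from blood and endothelium, was at 12.0, 9.62, 9.57 and 15.8 TPM, and Lmo1 at 10.99, 13.4, 9.77 and 8.40 TPM. Lmo3 alone was past 2-fold in any comparison, beside 1.01% of all compared genes that were higher in DKO against control. In the library labelled DKO Lmo3, at 7.79 TPM, came close to the level of Lmo1. LMO proteins compete with LIM-homeodomain factors for the adaptor LDB1. Ldb1 and Nhlh2 are named for their role, after their values were seen. Ldb1 was at 280 to 311 TPM over the 4 libraries, and Ldb2 was at 7.73, 5.23, 7.83 and 12.8 TPM, with a log2 ratio of 1.15 in DKO against the library labelled Isl1CKO. Nhlh2, a helix-loop-helix partner of LMO3 in neuroblastoma cells, was at 211, 286, 268 and 292 TPM. Gata3 followed the Isl1 label instead, at 38.5, 7.39, 49.9 and 9.43 TPM.

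Among 9 compared LIM-homeodomain genes, DKO was above control by 2-fold or more in 2 and below it in 2, beside 1.01% and 2.34% of all compared genes. Lhx1 was at 3.05, 28.8, 9.72 and 18.9 TPM and Lhx2 at 4.03, 12.2, 11.5 and 17.3 TPM. Lhx2 thus shared with Lmo3 the order of control lowest, single mutants between and double mutant highest, whereas Lhx1 was highest in the library labelled Isl1CKO. Lmx1a (36.5, 18.1, 6.26 and 7.97 TPM) and Isl2 (268, 241, 154 and 111 TPM) were the lower members. Lhx5 and Lhx9 were past 2-fold in the DKO comparisons only against Pou4f1KO (−1.74 and −1.23).

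**Figure D4:**
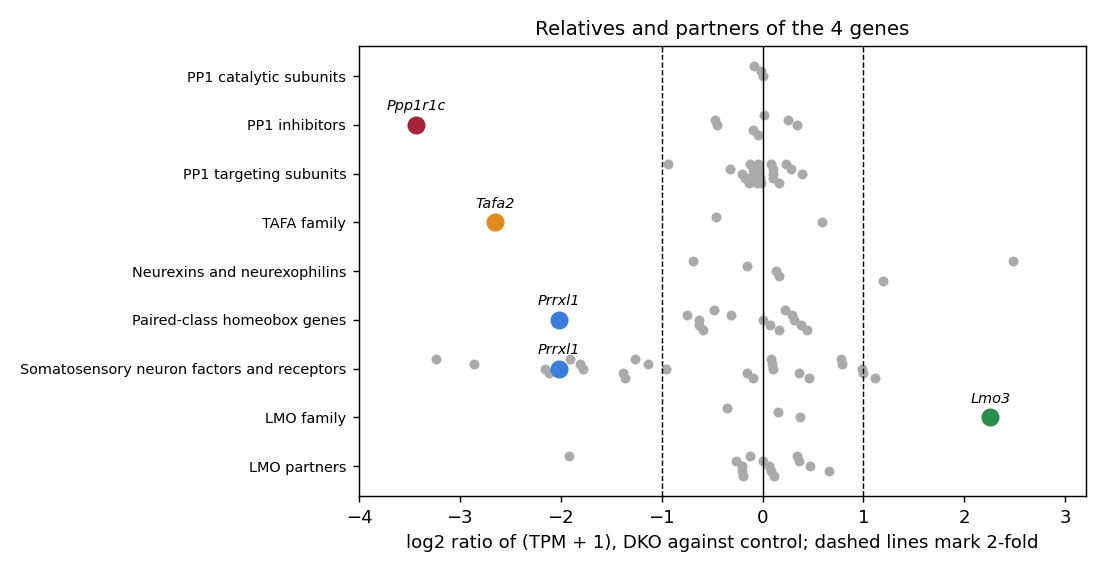
Log2 ratio of (TPM + 1) in DKO against control (horizontal axis) for every compared gene of 9 lists of relatives and partners (vertical axis), with the 4 genes as large coloured points, other list members in grey and dashed lines at 2-fold. Ppp1r1c (−3.43), Tafa2 (−2.65), Prrxl1 (−2.02) and Lmo3 (2.26) are the only members of their own families past 2-fold. The somatosensory list, which also contains Prrxl1, holds 12 lower genes.

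Markers of other cells moved with the same libraries. The 23 otic epithelium markers summed to 775 TPM in control, 548 in the library labelled Isl1CKO, 472 in Pou4f1KO and 376 in the library labelled DKO, and none was at 0 in any library. The 12 surface ectoderm and epithelium markers summed to 391, 230, 73.9 and 81.7 TPM, also with none at 0. In DKO against control 15 of 23 compared otic markers and 10 of 11 compared epithelial markers were at least 2-fold lower, beside 2.34% of all compared genes. Their medians were −1.49 and −1.90, against −0.01 over all compared genes. As a share of control, the otic sum was 48.5% and the epithelial sum 20.9% in the library labelled DKO, against 8.38% for Ppp1r1c, 13.8% for Tafa2 and 6.91% for Prrxl1. The double-mutant level chose the 3 genes, so nothing is read from their smaller shares. The otic sum includes Sox10, also on the glia list, at 160 TPM in control and 147 TPM in the library labelled DKO. Single otic markers ran from −3.18 (Hmx3) and −2.81 (Otol1) to 1.46 (Tbx1), so the sum does not stand for each marker. Fewer cells of a type and less RNA per cell cannot be told apart in such bulk libraries. The part of the epithelium in the levels of the 3 genes was not tested.

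When the library labelled DKO was compared with Pou4f1KO, most of these markers were within 2-fold. The epithelial list had a median of 0.17 with 0 of 11 lower by 2-fold, and the otic list a median of −0.32 with 3 of 23 lower, beside 1.12% of all compared genes. Of the 33 different markers of both lists, none had a ratio below that of Ppp1r1c (−1.33) or Tafa2 (−1.32), and 3 were below that of Prrxl1 (−1.02). In DKO against control 0 of the 33 were below Ppp1r1c, 2 were below Tafa2 and 11 were below Prrxl1. These genes were chosen on TPM across all libraries, with attention to the comparisons of DKO. Nothing is therefore read from their place among the markers in any comparison. In Pou4f1KO against control the markers reached further: 8 were below Ppp1r1c, 20 below Tafa2 and 25 below Prrxl1. In the library labelled Isl1CKO against control 22 markers were below Ppp1r1c, 22 below Tafa2 and 30 below Prrxl1.

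Pou4f1KO also held more RNA of neural tube and Hox genes, which bears on every comparison of DKO with it. The 33 neural tube and hindbrain markers summed to 202 TPM in control, 173 in the library labelled Isl1CKO, 266 in Pou4f1KO and 169 in the library labelled DKO, with 1, 4, 0 and 2 of them at 0. The 12 Hox markers summed to 101 TPM in Pou4f1KO and to 34.9 to 42.2 TPM in the other libraries. In DKO against Pou4f1KO 18 of 28 compared neural tube markers and 8 of 10 compared Hox markers were at least 2-fold lower, with medians of −1.26 and −1.86. Over all compared genes 1.12% were lower in that comparison and the median was −0.02. Many of these markers reached 1 TPM only in Pou4f1KO, such as Hoxd3 (10.1 TPM there) and Olig3 (13.9 TPM there). They were compared only through the library where they were high, which favoured low ratios against it. Nothing is therefore read from these counts and medians, whereas the sums hold every listed marker. The part of these cells in the low values of Ppp1r1c, Tafa2 and Prrxl1 relative to Pou4f1KO was not tested. In Pou4f1KO against control the medians of both lists were 1.32 and 1.85, and the limit given above holds for them too.

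Lmo3 was above control in all mutant libraries, whereas the otic and epithelial sums were below it. The lists with higher sums in the library labelled DKO than in control were choroid plexus (70.9 against 28.2 TPM, of which Ttr alone gave 44.8), endothelium (151 against 125 TPM), Hox (42.2 against 34.9 TPM), mesenchyme (730 against 626 TPM), otic ganglion neuron (3445 against 3152 TPM) and glia and neural crest (666 against 655 TPM). Choroid plexus stood at 252% of control, endothelium and Hox at 121% and mesenchyme at 117%, against 929% for Lmo3. In the library labelled Isl1CKO endothelium and mesenchyme stood at 71.9% and 76.0% of control while Lmo3 stood at 284%. Of 8 choroid plexus markers 1 was at 0 in control and 1 in the library labelled Isl1CKO, and none of the 10 endothelium or 15 mesenchyme markers was at 0 in any library. The part of these cells in the level of Lmo3 was not tested.

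**Figure D5:**
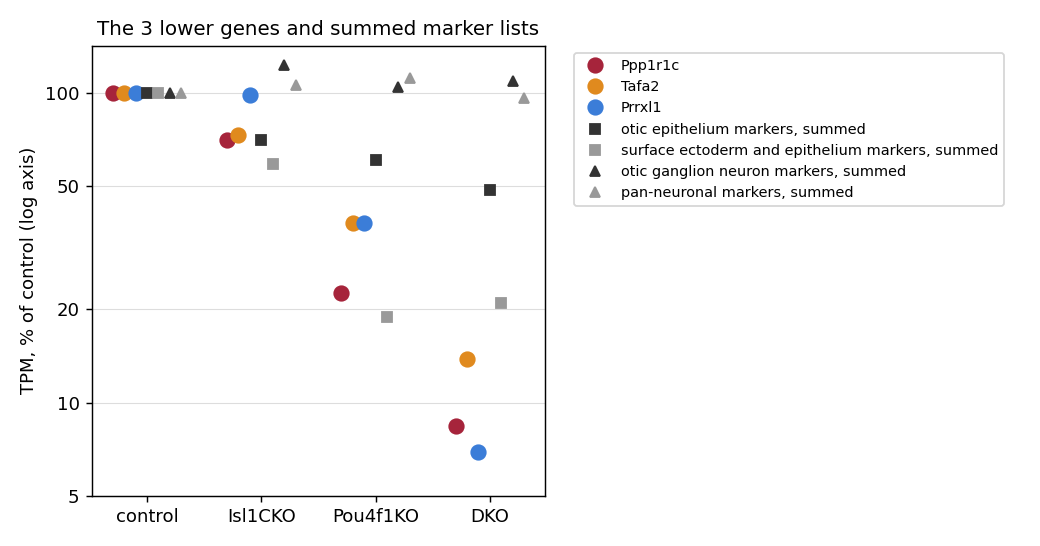
Level as a percentage of control (vertical axis, logarithmic) in each library (horizontal axis) of Ppp1r1c, Tafa2 and Prrxl1 (circles) and of the summed TPM of 4 marker lists (squares for epithelial lists, triangles for neuronal lists). In DKO the 3 genes stand at 8.38%, 13.8% and 6.91%, and the otic and epithelial sums at 48.5% and 20.9%. The level in DKO chose the 3 genes, so nothing is read from their place below the sums. The otic ganglion and pan-neuronal sums stand at 109% and 96.3%. The otic ganglion sum includes Neurod1 and the targeted Isl1, at 941 and 579 TPM in DKO against 641 and 450 TPM in control. Of its 18 genes, 5 were at least 2-fold lower and 1 higher in DKO.

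The genes most like each of the 4 were found by the distance between log2(TPM + 1) profiles over the 4 libraries after removing each gene's mean. The search covered genes with 1 row, an ordinary symbol and 5 TPM in some library, 11650 or 11651 for each gene. With only 4 libraries such likeness is a description. Nearest to Ppp1r1c was Hmx3 (distance 0.30), a homeobox gene of the otic vesicle, at 13.4, 8.30, 2.79 and 0.593 TPM. It was followed by Tafa2 (0.74), the glutamate receptor gene Grm2 (0.75), Epcam (0.82) and Prr15 (0.82). Close to Tafa2 were Ush1c (0.30), an Usher syndrome gene, Marveld3 (0.31), Hmx2 (0.40) and Otog (0.43), which encodes otogelin. Close to Prrxl1 were Mreg (0.25), Hmx2 (0.31), Spp1 (0.31) and Synm (0.38). Of these genes, Hmx2, Hmx3, Otog, Spp1 and Epcam are on the otic or epithelial marker lists given above.

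Closest to Lmo3 were Stac (0.41), Kcnj5 (0.47), which encodes a G-protein-gated potassium channel, Ccdc3 (0.50), the neurotensin receptor gene Ntsr1 (0.55) and the channel gene Pkd2l1 (0.56). Ntsr1 was at 16.3, 38.7, 38.0 and 60.5 TPM in control, labelled Isl1CKO, Pou4f1KO and labelled DKO, and Pkd2l1 at 7.44, 23.2, 15.5 and 40.7 TPM. Each had both single mutants above control and the double mutant highest. That order was found in 9.33% of compared genes, and its mirror image, control highest and double mutant lowest, in 10.6%, so the order alone sets none of the 4 genes apart.

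The chromosomal neighbours of the genes did not follow them, with 1 exception. Within 500 kb of Ppp1r1c 5 genes were compared, and their log2 ratios in DKO against control lay between −0.07 and 0.65. One of these is Neurod1, the neurogenic factor, 251 kb away, which was at 641, 814, 858 and 941 TPM in control, labelled Isl1CKO, Pou4f1KO and labelled DKO. The 4 compared neighbours of Tafa2 lay between −0.45 and 0.71, and the 1 compared neighbour of Lmo3, Mgst1, was at 0.33. Of 9 compared neighbours of Prrxl1, 1 was past 2-fold. That gene, 1700024G13Rik, lies on the minus strand at chr14:32376502-32388373, 211 kb from Prrxl1, and overlaps no other row. It was at 9.46, 6.72, 5.50 and 0.876 TPM, lowest in the library labelled DKO like Prrxl1, with log2 ratios of −2.48 against control and −1.79 against Pou4f1KO. Ercc6, a DNA repair gene, lies between them and was at 15.5 to 17.2 TPM.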

How the data were processed

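RNA was measured in 4 cochleovestibular ganglion libraries at embryonic day 11.5, 1 per genotype label. Per the submitters' processing notes, Trimmomatic, FastQC, HISAT2, SAMtools, StringTie and build mm10 were used, and their versions and settings are not given in the sources used here. Per the file headers, the authors deposited TPM, FPKM and coverage (a signal, the mean read depth) for each gene, and no read counts were used. The 4 genes and the gene lists were chosen with earlier results of these data known.

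Rows of 1 symbol were summed, and genes at 1 TPM or more in at least 1 library were compared as the log2 ratio of (TPM + 1). A gene was counted as past 2-fold at a log2 ratio of at least 1 in size. The departure was the double-mutant ratio minus the sum of both single-mutant ratios. No test was possible. Alternatives were a pseudocount of 0.1, FPKM, 3 other scalings and other filters. Genes named beside the 4 were the targeted genes; up to 6 members of each family list past 2-fold in a comparison of DKO; all PPP1R1, TAFA and LMO genes; the 5 genes of most similar profile; and neighbours within 500 kb. Some genes that this rule names are not reported here. Calculations used Python 3.11.15, pandas 2.3.3 and NumPy 2.4.6 and were tested on simulated data. Promoter windows came from RefSeq, exon and transcript numbers from GENCODE M21.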

Additional observations from a re-analysis of the deposited data

How the results depend on the processing

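With 1 library per genotype, no value here has a replicate error, and the read depth limits Prrxl1 in the library labelled DKO and Lmo3 in control. Of 120 recalculated values of the 4 genes, 98 moved by less than 1.5-fold, 22 moved by more or crossed 2-fold, and 0 changed sign. Ppp1r1c and Tafa2 stayed at least 2-fold below each other library under every alternative run. Prrxl1 left that set with FPKM, with pan-neuronal scaling and with a filter at 5 TPM, and Lmo3 left the higher set with FPKM.

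A pseudocount of 0.1 TPM gave Prrxl1 log2 ratios of −3.46 (DKO against control), −3.44 (DKO against Isl1CKO), −2.13 (DKO against Pou4f1KO) and −1.34 (Pou4f1KO against control), with a departure of −2.11. It gave Lmo3 3.07 (DKO against control) and 1.40 (Isl1CKO against control), and Tafa2 a departure of −1.0. FPKM gave Prrxl1 −1.19, −1.18 and −0.50 in the 3 comparisons of DKO and a departure of −0.50. It gave Lmo3 1.55 (DKO against control), 0.97 (DKO against Pou4f1KO) and 0.58 (Pou4f1KO against control). Pan-neuronal scaling, which shifted the median of all genes by up to −0.27 (Pou4f1KO against control), gave Prrxl1 −0.91 (DKO against Pou4f1KO), −1.21 (Pou4f1KO against control) and a departure of −0.79, and Lmo3 0.83 (Pou4f1KO against control). For Prrxl1 in Pou4f1KO against control, median-of-ratios scaling gave −1.01 and leaving out haemoglobin, ribosomal, mitochondrial and short structural RNA genes gave −1.04, and the former gave a departure of −1.0.

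Counts of genes past 2-fold followed the pseudocount, the unit and the filter. With 0.1 TPM they were 343 higher and 605 lower (DKO against control), 343 and 387 (DKO against Isl1CKO), 247 and 369 (DKO against Pou4f1KO), 220 and 287 (Isl1CKO against control), and 323 and 469 (Pou4f1KO against control). With FPKM they were 75 and 186, 32 and 101, 42 and 69, 36 and 25, and 71 and 138 in that order. A filter at 5 TPM gave 93 higher (DKO against control), 76 higher (DKO against Isl1CKO), 51 and 97 (DKO against Pou4f1KO), 52 and 51 (Isl1CKO against control) and 88 and 167 (Pou4f1KO against control), since it left fewer genes. Pan-neuronal scaling gave 411 lower in Pou4f1KO against control. Genes with DKO past 2-fold from each other library, an alternative count chosen after seeing the data, were 51 higher and 80 lower with 0.1 TPM, 4 and 7 with FPKM, 6 higher at 5 TPM and 10 lower with pan-neuronal scaling. The FPKM ratios also carry an added 1, which weighs more than beside TPM because FPKM values were lower. Apart from this and from the filter that left fewer genes, the cause of these changes was not tested. No paired analysis was possible because each genotype has 1 library.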

Other observations

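The genes below were picked because, as in the 4 genes, the library labelled DKO was at least 2-fold from each other library. They were named after their values were seen, and Hmx3 and Ush1c are also among the genes of most similar profile above. Levels are given in TPM in the order control, labelled Isl1CKO, Pou4f1KO and labelled DKO. Beside Ppp1r1c, Tafa2 and Prrxl1, the lower genes included Dio3, the deiodinase that inactivates thyroid hormone, at 18.5, 12.3, 10.6 and 3.46 TPM. Its antisense neighbour Dio3os, on the opposite strand of the same imprinted locus, was at 5.03, 3.37, 2.20 and 0.553 TPM. Scn9a and the otic genes Hmx3, Otol1 and Ush1c had the same order. Otol1, which encodes the otoconial matrix protein otolin, was at 88.4, 35.4, 25.5 and 11.8 TPM.

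Beside Lmo3, the higher genes included Penk, the enkephalin precursor, at 11.5, 8.76, 14.5 and 34.6 TPM, and Tbx1, a T-box gene of the otic vesicle and pharynx, at 11.7, 13.1, 9.38 and 33.8 TPM. Unlike Lmo3, both had single mutants on either side of control. Pax1 and Pax9, paired-box genes known from the pharyngeal pouches and sclerotome, were at 0.363, 0.0917, 0.174 and 1.92 TPM and at 0.342, 0.247, 0.449 and 2.03 TPM. Ttr, the choroid plexus transport protein, was at 2.36, 7.92, 8.22 and 44.8 TPM, with single mutants above control as in Lmo3.

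The ratio of largest size among the 17 lower genes belonged to Rpl26, at 812, 802, 724 and 34.9 TPM. Its row overlaps that of Gm15772 on the same strand, which was at 725, 715, 639 and 1462 TPM, so reads could be split between both rows. Rnaset2a, at 34.5, 42.0, 39.0 and 7.21 TPM, likewise overlaps Rnaset2b. These values are uncertain, whereas Ppp1r1c, Tafa2 and Prrxl1 overlap no other row.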
